A study of Mus musculus with 10 samples.

Results

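The genes described here are 10 members of the insulin-like growth factor (IGF) system, measured in xenografts of human breast cancer cells, positive for the estrogen receptor, grown in mice. They are 3 receptors (IGF1R, IGF2R and INSR), 2 receptor substrates (IRS1 and IRS2) and 5 secreted IGF-binding proteins (IGFBP2, IGFBP3, IGFBP4, IGFBP5 and IGFBP6). A member was taken as every probe set that the platform annotation gives exactly 1 symbol, that symbol being 1 of the 10. This found all 10 genes, with 34 probe sets, among 19556 genes that had a probe set with 1 symbol. The 10 genes and 31 of their 34 probe sets passed the filter on low values and were tested.

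All animals were female nu/nu mice aged 20 weeks that had been given an estrogen pellet. It was left in place in the estrogen-treated groups and removed 1 week ahead of collection in the withdrawn groups. Tumor cells were laser-captured from frozen sections and their RNA was amplified by PCR, then hybridized to human 3′ arrays with 61359 probe sets. Metastatic lymph nodes gave 3 arrays from mice with estrogen (E; mice 6, 11 and 14) and 3 from mice after withdrawal (EWD; mice 9, 10 and 19). Primary mammary gland tumors gave 2 estrogen-treated arrays, from mice 11 and 14, and 2 withdrawn arrays, from mice 10 and 19, so 4 of the 6 mice gave both sites. No group without any pellet was analysed here, and the labels do not name the cell line.

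IGF1R is a receptor tyrosine kinase at the cell surface that binds the growth factors IGF1 and IGF2, and INSR, the insulin receptor, is its close relative and can form hybrid receptors with it. Once active, both phosphorylate the docking proteins IRS1 and IRS2, which pass the signal to the PI3K-AKT-MTOR and RAS-MAPK cascades. IGF2R, the mannose 6-phosphate receptor, has no kinase and carries IGF2 to the lysosome, where it is degraded. The IGFBPs bind IGFs outside the cell and set how much of them reaches the receptors. In estrogen receptor positive breast cancer cell lines, estrogen is known to raise IGF1R and IRS1.

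The values are the deposited log2 signals, and a level can be compared between arrays for 1 probe set but not between probe sets. The arrays did not share a distribution. The 99th percentiles were 9.44 and 10.04 on the estrogen-treated primary tumor arrays and 11.39 to 11.67 on the other 8, with medians from 2.70 to 2.83, so each comparison was also run after quantile normalization. The first principal component (45.4% of the variance) set both of those arrays and the estrogen-treated lymph node of mouse 11 apart, at 107.8 to 123.4 against −94.7 to 18.3. The 18 hybridization control probe sets averaged 12.04 to 12.47 on 4 arrays: the withdrawn primary tumors, the withdrawn node of mouse 19 and the estrogen-treated node of mouse 11. On the other 6 they averaged 9.47 to 10.59. Between the primary tumor groups this split and the pellet state cannot be told apart.

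Luminal tumor cell markers differed in level: KRT18, a luminal keratin, was at 11.18 to 13.47 and EPCAM, an epithelial surface protein, at 8.64 to 12.41, while KRT8 was at 5.73 to 9.61, FOXA1 at 4.08 to 7.87 and KRT19 at 3.90 to 4.97. The mean of the 10 luminal markers was 8.09 to 8.29 in estrogen-treated primary tumors against 10.30 to 10.38 in withdrawn ones, and 9.21 to 10.06 against 10.47 to 10.72 in lymph nodes. After quantile normalization the primary tumor ranges were 9.07 to 9.18 and 10.03 to 10.15. The human lymphocyte list averaged 2.73 to 3.20 and the fibroblast and vessel list 3.01 to 3.48, with PTPRC, the leukocyte marker CD45, at 2.00 to 2.54. Higher members of these lists were CD79A, a B cell marker, at 3.73 to 6.52, and the collagens COL1A1, at 6.33 to 7.54, and COL3A1, at 2.43 to 5.23. The host's own cells are mouse cells, which human probe sets read only by cross-hybridization. GREB1, an estrogen-induced gene used to check the pellet state, rose with estrogen by 2.63 (SE 0.51, limma adjusted p 0.0247) as the average of both sites. After quantile normalization it rose by 3.44 (adjusted p 0.0137). This check rests on 1 gene. TFF1, of the luminal list, was at 14.02 to 14.14 with estrogen and 13.91 to 14.12 after withdrawal in nodes. In primary tumors TFF1 was at 11.86 and 12.85 with estrogen and 13.41 and 13.34 after withdrawal, as deposited. ESR1, the estrogen receptor, was at 5.44 to 10.24 on the 5 estrogen-treated arrays and at 11.02 to 12.65 on the 5 withdrawn ones, and was lower with estrogen by the average of both sites as deposited (−3.50, SE 0.82, adjusted p 0.0404) and short of the threshold after quantile normalization (−2.69, adjusted p 0.0703).

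Each gene was represented by its most intense probe set on average and tested with limma over 17170 genes, with mouse as a random block. Differences are given in log2 units, each with the fit's standard error (SE). A gene was called at a Benjamini-Hochberg adjusted p below 0.05. The p-values rest on the spread between arrays within groups, pooled over the 4 groups. With a block correlation of −0.0415, both arrays of a mouse counted almost as independent. The averaged estrogen comparison thus weighs 10 arrays, although the pellet state varied over 6 mice. Estrogen against withdrawal in primary tumors called 2 of the 10 members, IGF1R higher and INSR lower, where 7.82% of all genes were called. The average of the estrogen comparisons of both sites called the same pair, against 8.01% of all genes. After quantile normalization both comparisons called IGF1R alone, against 1.34% and 3.72% of all genes.

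In lymph nodes, 0 of the 10 members were called for estrogen against withdrawal. There limma called 0% of all genes on either scale, with 1002 genes as deposited and 1115 after quantile normalization at an unadjusted p under 0.05, of which IGF1R was the only member in both. The difference between the estrogen responses of the sites was called by limma for 0 members on either scale. Of all genes, 0.0116% were called as deposited and 0.00582% after quantile normalization. At an unadjusted limma p under 0.05 were 2 and 1 members, against 10.8% and 6.34% of all genes. Lymph node against primary tumor called 0 members with estrogen, against 8.76% of all genes as deposited and 0.46% after quantile normalization. There 3 and 4 members had an unadjusted limma p under 0.05, against 23.1% and 12.1% of all genes. After withdrawal the site comparison called 0 members and 0% of all genes on either scale. On each scale 1 member had an unadjusted limma p under 0.05, against 10% and 8.39% of all genes. The average of these site comparisons called IGF2R alone as deposited, against 8.15% of all genes, and 0 members after quantile normalization, against 0.344%. The averaged comparisons are built from the same arrays as the single ones and are not independent of them.

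**Figure D1:**
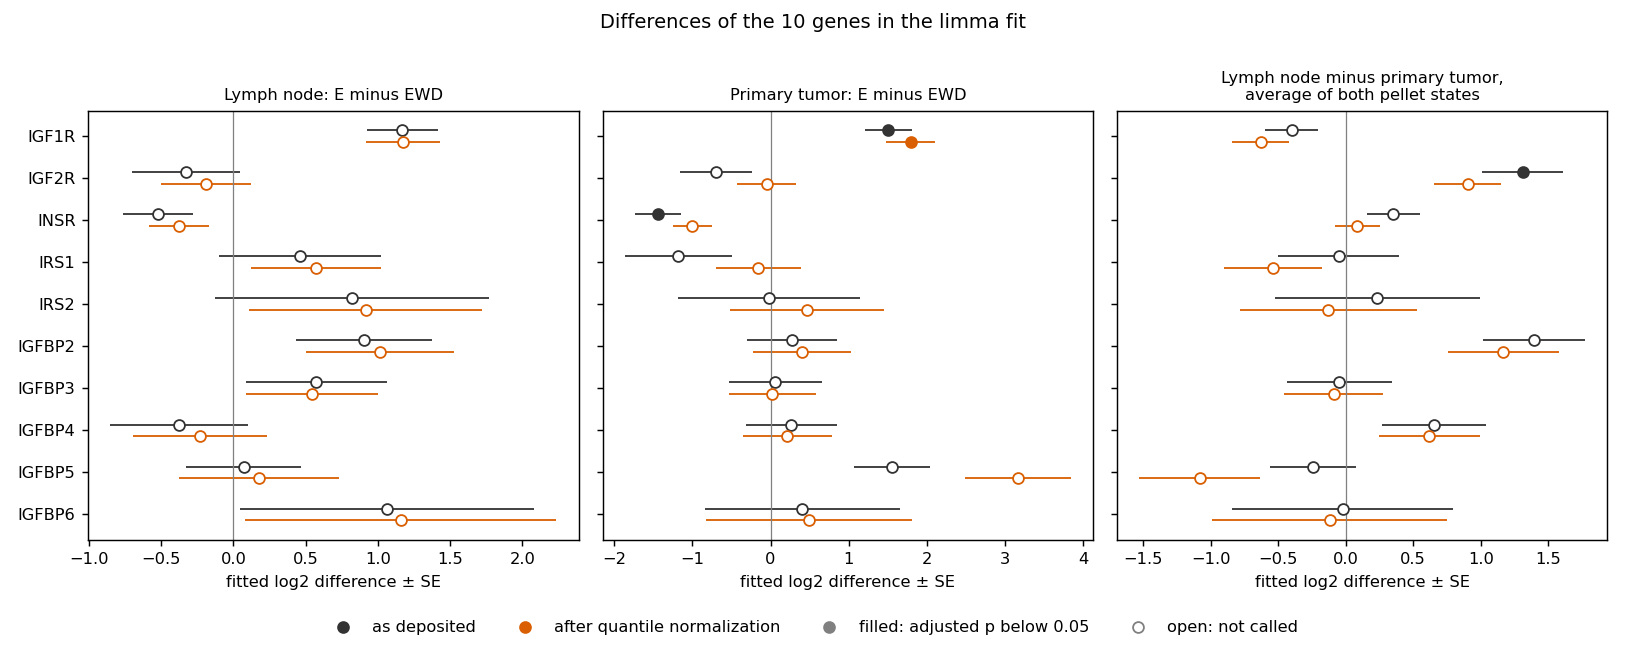
Fitted log2 differences of the 10 genes with their SE, for estrogen (E) minus withdrawal (EWD) in lymph nodes, the same in primary tumors, and lymph node minus primary tumor averaged over pellet states. Black marks values as deposited and orange after quantile normalization, and filled circles were called; IGF1R is the one gene filled on both scales, in primary tumors.

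IGF1R, the main IGF receptor, was higher with estrogen at both sites and was called in primary tumors. On the most intense of its 5 probe sets (Entrez gene 3480) the signal was 4.53, 4.44 and 4.40 in estrogen-treated lymph nodes of mice 6, 11 and 14. It was 3.07, 3.56 and 3.24 in the withdrawn nodes of mice 9, 10 and 19. Every estrogen-treated node lay above every withdrawn node, with group means of 4.46 ± 0.07 and 3.29 ± 0.25 (SD, n = 3 each).

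In primary tumors IGF1R was at 5.19 and 4.86 with estrogen (mice 11 and 14) and at 3.88 and 3.15 after withdrawal (mice 10 and 19). The groups did not overlap, and the estrogen-treated tumors were the highest of all 10 arrays. The withdrawn values at both sites were not far above the array medians of 2.70 to 2.83, which limits how much lower they could read. The difference was 1.51 (SE 0.30, limma adjusted p 0.0246), or 2.84-fold, and 1.79 (SE 0.32, adjusted p 0.038) after quantile normalization. It was lost without the primary tumor array of mouse 11 (1.34, adjusted p 0.147), of mouse 14 (1.67, adjusted p 0.0654) or of mouse 19 (1.14, adjusted p 0.125).

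The lymph node difference of IGF1R was 1.17 (SE 0.25, unadjusted p 0.00114), or 2.25-fold, and missed the threshold over all genes (limma adjusted p 0.279). Within arrays of low hybridization controls it was 1.15 (2 arrays against 2) and within arrays of high controls 1.20 (1 against 1). The average over both sites was 1.34 (SE 0.19, adjusted p 0.0118) and after quantile normalization 1.48 (adjusted p 0.0134). It fell short of the threshold without the primary tumor of mouse 11 (1.25, adjusted p 0.0666) or of mouse 19 (1.15, adjusted p 0.0542). The response of the nodes minus that of the primary tumors was −0.34, with a 95% interval from −1.24 to 0.56 (adjusted p 0.818). A smaller, an equal and a larger response in the nodes all lie within that interval.

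Of the 10 luminal markers, 7 were lower with estrogen in nodes and 9 in primary tumors as deposited, the other way from IGF1R. After quantile normalization 7 were lower in nodes and 6 in primary tumors, where 4 were higher. Their median difference in primary tumors was −2.67 as deposited and −1.15 after quantile normalization. The 3 measured basal epithelium markers (KRT5, KRT14 and ACTA2) had higher group means with estrogen at both sites, the way of IGF1R. Their median differences were 1.08 in nodes and 0.65 in primary tumors as deposited and 1.15 and 1.67 after quantile normalization, and 0 of the 3 were called. KRT5 was at 3.18, 6.22 and 3.44 in estrogen-treated nodes of mice 6, 11 and 14. In withdrawn nodes it was at 2.92, 3.02 and 3.65, so its higher node mean rests on mouse 11. The part of either list in the result was not tested. In RNA pooled from captured cells, fewer cells of a type and less RNA per cell cannot be told apart, for IGF1R or any other member.

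The other 4 IGF1R probe sets had means of 2.38 to 3.29, near the low end of the arrays. Counting all 5, 4 were higher with estrogen in lymph nodes and 4 in primary tumors, with differences of group means from −0.05 to 1.17 and from −0.05 to 1.51. With the mean over the gene's probe sets in place of the highest one, the averaged estrogen difference was 0.46 (limma adjusted p 0.0333) and the primary tumor difference 0.52 (adjusted p 0.0795). All 5 were lower in lymph nodes than in primary tumors on the average of pellet states, with differences of −0.65 to −0.07. For the used probe set that site difference was −0.40 (SE 0.20, adjusted p 0.269), and for the mean over probe sets −0.43 (adjusted p 0.0414).

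**Figure D2:**
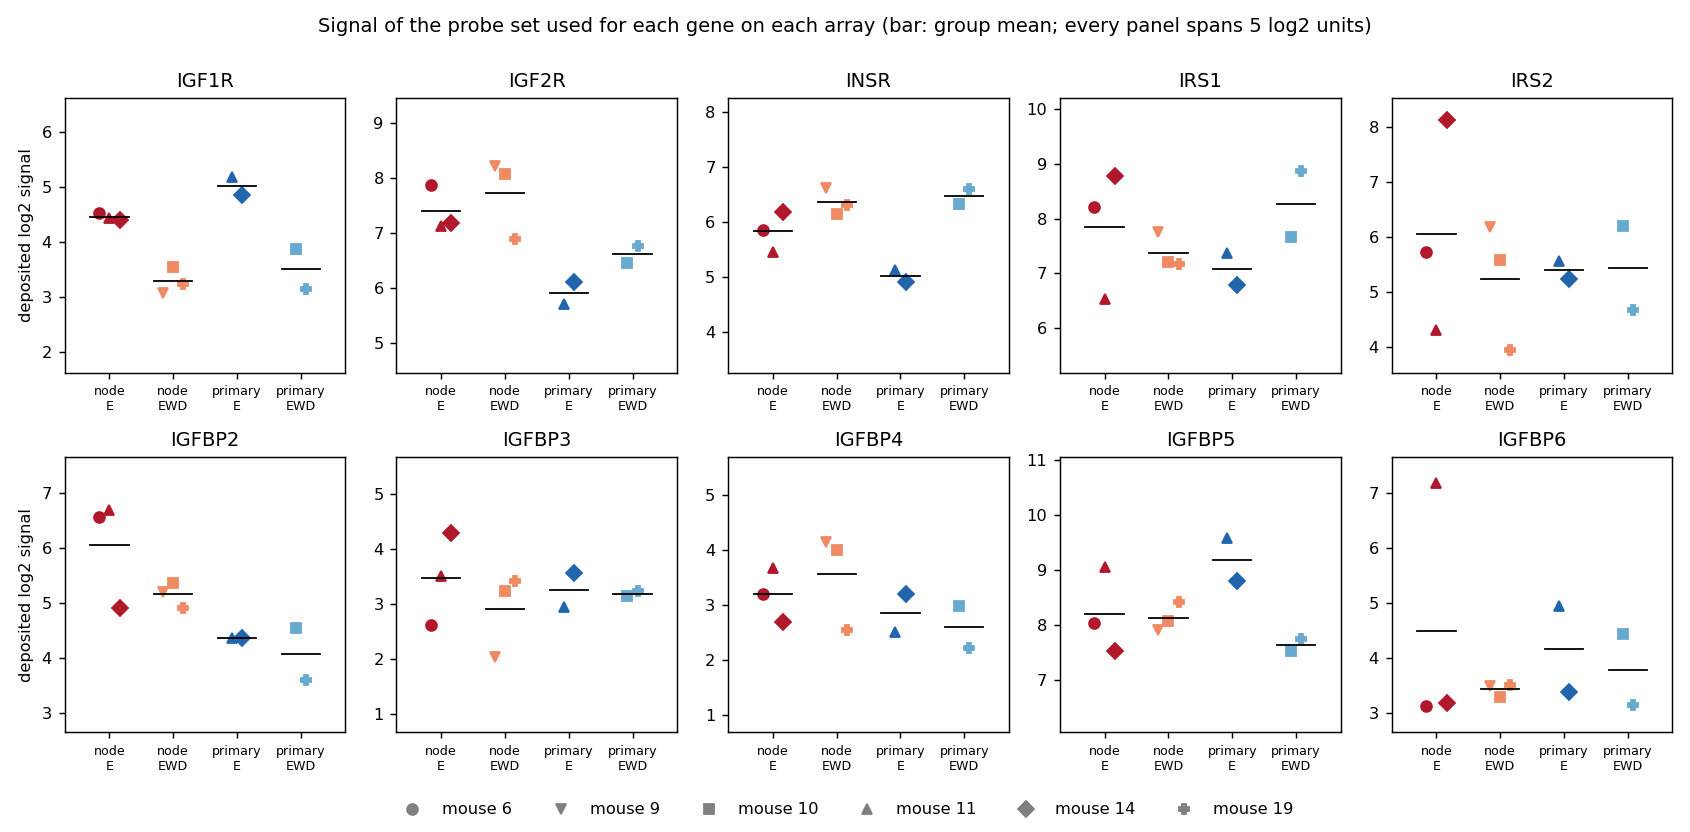
Deposited log2 signal (y axis) of the probe set used for each gene on each array, by group (x axis: lymph node or primary tumor, E or EWD), with the mouse as the symbol and a bar at the group mean. IGF1R and INSR separate in opposite directions by pellet state in primary tumors, IGF2R and IGFBP2 are lower in primary tumors, and IRS2 and IGFBP6 each have 1 lymph node array far from its group.

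INSR, the insulin receptor, was lower with estrogen in primary tumors. The most intense of its 5 probe sets, the one used (Entrez gene 3643), was at 5.14 and 4.91 in estrogen-treated primary tumors and at 6.33 and 6.61 in withdrawn ones. In lymph nodes it was at 5.86, 5.46 and 6.19 with estrogen and at 6.62, 6.14 and 6.32 after withdrawal. The primary tumor groups did not overlap, while in the nodes the estrogen-treated array of mouse 14 lay above the withdrawn array of mouse 10.

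The primary tumor difference of INSR was −1.44 (SE 0.30, limma adjusted p 0.0264), a 2.72-fold lower level, and after quantile normalization the level was 2-fold lower (SE 0.25 in log2 units, adjusted p 0.087). Leaving out any 1 of the 4 primary tumor arrays ended the call (−1.59 to −1.30, adjusted p 0.0792 to 0.136), as did leaving out the node of mouse 6 (adjusted p 0.0515) or of mouse 10 (adjusted p 0.0518). In lymph nodes the difference was −0.52 (SE 0.24, adjusted p 0.878). The average of both sites was −0.98 (SE 0.19, adjusted p 0.0237) and after quantile normalization −0.69 (adjusted p 0.0519).

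The nodes' response minus that of the primary tumors was 0.92 for INSR, with a 95% interval from 0.03 to 1.80 and a limma adjusted p of 0.438. The luminal marker list was lower with estrogen too, at 8.09 to 8.29 against 10.30 to 10.38 in primary tumors as deposited. After quantile normalization it was at 9.07 to 9.18 against 10.03 to 10.15. Its part in the INSR result was not tested. The other 4 INSR probe sets had means of 2.22 to 3.06, and 2 of them were below the filter. Over all 5, 3 were lower with estrogen in primary tumors and 2 in lymph nodes, and the mean over probe sets differed by −0.33 (adjusted p 0.255) in primary tumors, so the call rests on 1 probe set.

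**Figure D3:**
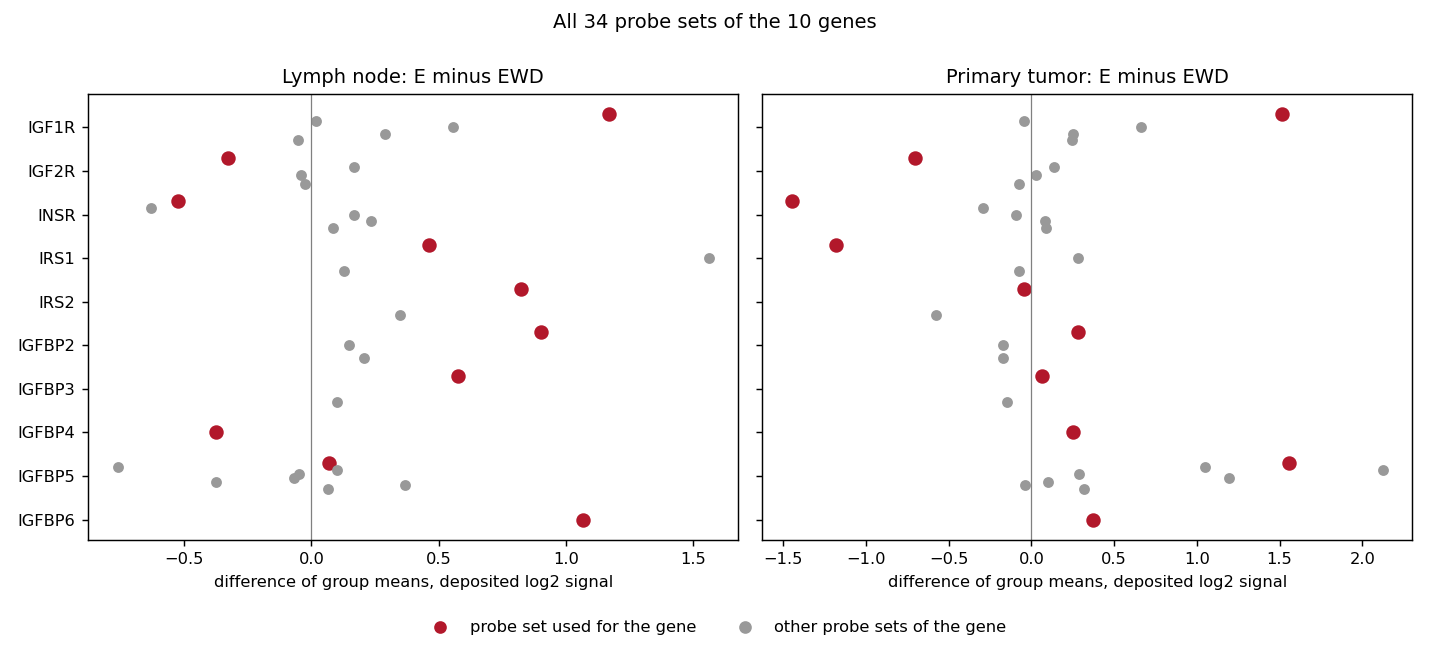
Differences of group means (x axis, deposited log2 signal) for each of the 34 probe sets of the 10 genes, estrogen minus withdrawal, in lymph nodes and in primary tumors. Red is the probe set used for the gene; the other IGF1R and INSR probe sets lie nearer 0 than the used one in primary tumors, while several of the IGFBP5 probe sets lie to the right there.

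IGF2R, the receptor that clears IGF2, was higher in lymph node metastases than in primary tumors. Its used probe set (g4504610_3p_a_at, Entrez gene 3482) was at 7.88, 7.14 and 7.19 in estrogen-treated nodes and 8.22, 8.07 and 6.90 in withdrawn nodes. In primary tumors it was at 5.72 and 6.11 with estrogen and 6.47 and 6.77 after withdrawal. All 6 nodes were above all 4 primary tumors, the nearest being the node and the primary tumor of mouse 19. The luminal marker list was higher in nodes too. On the average of pellet states 9 of its 10 markers were higher and 1 lower as deposited, at a median difference of 0.92. After quantile normalization 7 were higher and 3 lower, at a median of 0.32. Its part in the IGF2R result was not tested.

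Averaged over pellet states, IGF2R was higher in nodes by 1.31 (SE 0.30, limma adjusted p 0.036), or 2.48-fold. With estrogen the difference was 1.50 (adjusted p 0.0671) and after withdrawal 1.12 (adjusted p 0.428). Within arrays of like hybridization controls it was 1.62 with estrogen (low controls, 2 nodes against 2 primary tumors) and 0.28 after withdrawal (high controls, 1 against 2), or 0.79 and 0.41 after quantile normalization. After quantile normalization the average was 0.90 (SE 0.25, adjusted p 0.155), all genes having a median site difference of 0.16 as deposited and 0.01 after it. The call held without the estrogen-treated node of mouse 11, that of mouse 14 or the withdrawn node of mouse 19, and was lost without any 1 of the other 7 arrays (1.18 to 1.41, adjusted p 0.0786 to 0.136).

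Within a mouse, the node of IGF2R exceeded the primary tumor by 1.61, 1.42, 1.08 and 0.13 in mice 10, 11, 14 and 19. The second most intense probe set, at a mean of 3.74, gave 1.11, 0.80, 0.95 and 0.48 for the same mice. Both were therefore positive in 4 of 4 mice, and they stayed positive in 4 of 4 after quantile normalization, at 1.37, 1.15, 0.13 and 0.26 for the first and 0.95, 0.92, 0.84 and 0.46 for the second. In the paired fit, with mouse as a fixed block on the 8 arrays of these mice, the IGF2R site average was 1.06 and was not called (limma adjusted p 0.259), in a fit that called 0% of all genes.

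In the fit on all 35191 tested probe sets, both IGF2R probe sets were called for the site average as deposited (1.31, limma adjusted p 0.045, and 0.92, adjusted p 0.0236), where 4.58% of all probe sets were called. After quantile normalization neither was (adjusted p 0.169 and 0.0729), where 0.165% were. The remaining pair of IGF2R probe sets had means of 2.56 and 2.57, and all 4 had higher group means in the nodes under both pellet states. IGF2R was not called for estrogen, with −0.33 (adjusted p 0.951) in nodes and −0.70 (adjusted p 0.378) in primary tumors, the latter −0.05 after quantile normalization.

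**Figure D4:**
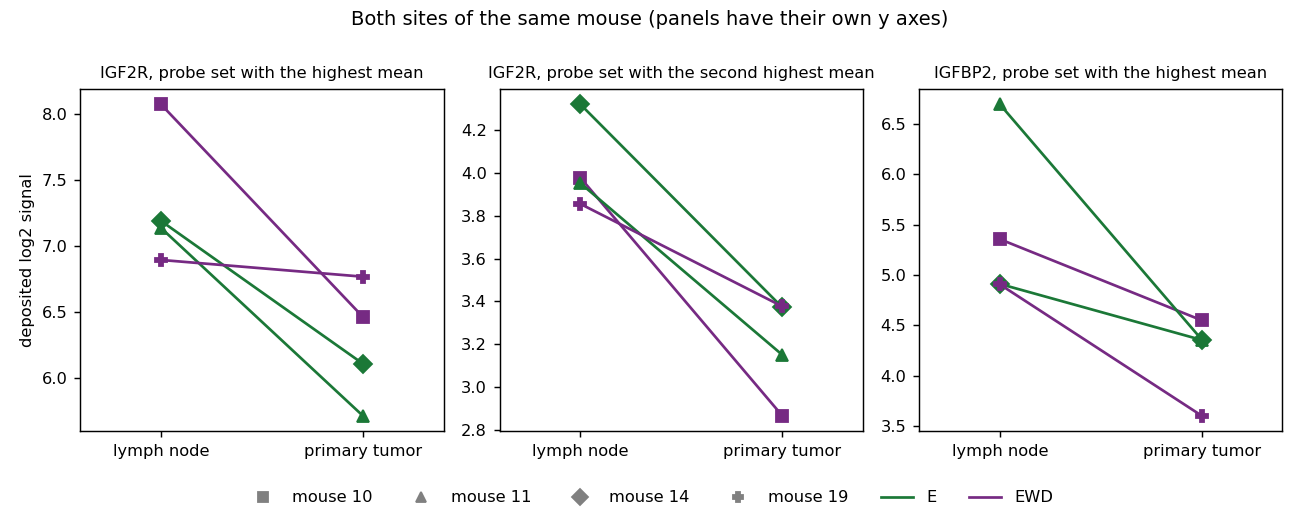
Deposited log2 signal (y axis) in the lymph node and the primary tumor of each of the 4 mice with both sites (lines; green with estrogen, purple after withdrawal), for 2 IGF2R probe sets and the IGFBP2 probe set used. Every line falls from node to primary tumor; the IGF2R line of mouse 19 is nearly flat on the first probe set.

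IRS1 and IRS2, the docking proteins, were not called in any of the 7 comparisons. The used IRS1 probe set (g5031804_3p_at, Entrez gene 3667) was at 8.20, 6.54 and 8.78 in estrogen-treated nodes, 7.75, 7.21 and 7.17 in withdrawn nodes, 7.37 and 6.79 in estrogen-treated primary tumors and 7.65 and 8.86 in withdrawn ones. The groups overlapped in nodes, with the estrogen-treated node of mouse 11 the lowest of all 10 arrays. In primary tumors they did not overlap, and the difference was −1.18 (SE 0.69, limma adjusted p 0.321) as deposited but −0.15 (adjusted p 0.897) after quantile normalization.

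The second most intense IRS1 probe set had another pattern. It was at 5.86, 4.75 and 6.01 in estrogen-treated nodes and at 4.36, 4.13 and 3.46 in withdrawn nodes, with no overlap. In primary tumors it was at 4.43 and 4.69 with estrogen and 4.23 and 4.32 after withdrawal, again without overlap and with a smaller gap.

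The node difference on that probe set was 1.56 (SE 0.36, unadjusted p 0.0021, limma adjusted p 0.488 over all probe sets). Its average over both sites was 0.92 (adjusted p 0.102) as deposited and 1.04 (SE 0.21, adjusted p 0.0477) after quantile normalization, where 1.67% of all probe sets were called. As deposited, 3.57% of all probe sets were called for the averaged estrogen comparison, among them 2 of the 31 tested probe sets of the members, the used ones of IGF1R and INSR. After quantile normalization the count was again 2, that of IGF1R and this second IRS1 probe set. The least intense of the 3 IRS1 probe sets lay between 2.62 and 3.77.

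IRS2 (g4511968_3p_a_at, Entrez gene 8660) was at 5.73, 4.32 and 8.12 in estrogen-treated nodes, 6.18, 5.57 and 3.95 in withdrawn nodes, 5.56 and 5.23 in estrogen-treated primary tumors and 6.20 and 4.68 in withdrawn ones. The node of mouse 14 was the highest array, and it was also the highest on the second IRS2 probe set, at 6.50 against 3.16 to 4.55 on the other 9 arrays. The SD of the estrogen-treated nodes was 1.92 (n = 3), and the node difference of 0.82 (SE 0.95, limma adjusted p 0.951) was smaller than its SE. In primary tumors the difference was −0.02 with a 95% interval from −2.66 to 2.62.

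IGFBP5, a binding protein that attaches to the extracellular matrix, had the most probe sets, 8, and they did not all follow 1 pattern. The used probe set (Entrez gene 3488) was at 9.58 and 8.81 in estrogen-treated primary tumors and at 7.53 and 7.74 in withdrawn ones. In nodes it was at 8.04, 9.07 and 7.53 with estrogen and at 7.92, 8.08 and 8.42 after withdrawal. The primary tumor groups were apart and the node groups overlapped, the node of mouse 11 being above all withdrawn nodes and that of mouse 14 below them.

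The primary tumor difference of IGFBP5 was 1.56 (SE 0.49, limma adjusted p 0.0846), or 2.94-fold, and 3.17 (SE 0.68, adjusted p 0.0599) after quantile normalization, and it missed the threshold on both scales. On the quantile-normalized scale the 2 estrogen-treated primary tumors were at 11.36 and 9.89 and the withdrawn ones at 7.33 and 7.58. Without the estrogen-treated node of mouse 11 it was called (1.55, adjusted p 0.0134), as it was without that of mouse 14 (1.56, adjusted p 0.0474). In primary tumors those fits called 20.4% and 11.4% of all genes, against 7.82% with all 10 arrays. The 3 measured basal markers were higher with estrogen there too, and their part was not tested. In nodes the IGFBP5 difference was 0.07 (SE 0.40, adjusted p 0.988). The response of nodes minus that of primary tumors was −1.49, with a 95% interval from −2.94 to −0.03 and an adjusted p of 0.449. Without the estrogen-treated node of mouse 11 it was −1.91 (adjusted p 0.0419), in a fit that called 7.75% of all genes, against 0.0116% with all 10 arrays.

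Of the 8 IGFBP5 probe sets, 7 were higher with estrogen in primary tumors and 4 in lymph nodes. The one with the third highest mean (g184819_3p_s_at) was at 5.06 and 5.70 in estrogen-treated primary tumors and 3.22 and 3.29 in withdrawn ones, a difference of 2.16 (SE 0.51, limma adjusted p 0.0533). Its node groups overlapped, with 3.54, 5.01 and 4.27 against 4.82, 4.06 and 3.64. Another, at a mean of 3.13, differed by 1.20 (SE 0.34, adjusted p 0.093) in primary tumors and −0.07 in nodes.

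The second most intense IGFBP5 probe set ranged from 2.98 to 7.93 and matched neither. It was at 2.98, 7.47 and 6.08 in estrogen-treated nodes and 7.93, 7.01 and 3.87 in withdrawn nodes, then at 4.18 and 6.07, and 5.04 and 3.12, in primary tumors. The node was higher than the primary tumor in 4 of 4 mice on that probe set as deposited, by 0.0042 to 3.29, and in 3 of 4 after quantile normalization. Its site average was 1.28 (SE 1.09, limma adjusted p 0.593).

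**Figure D5:**
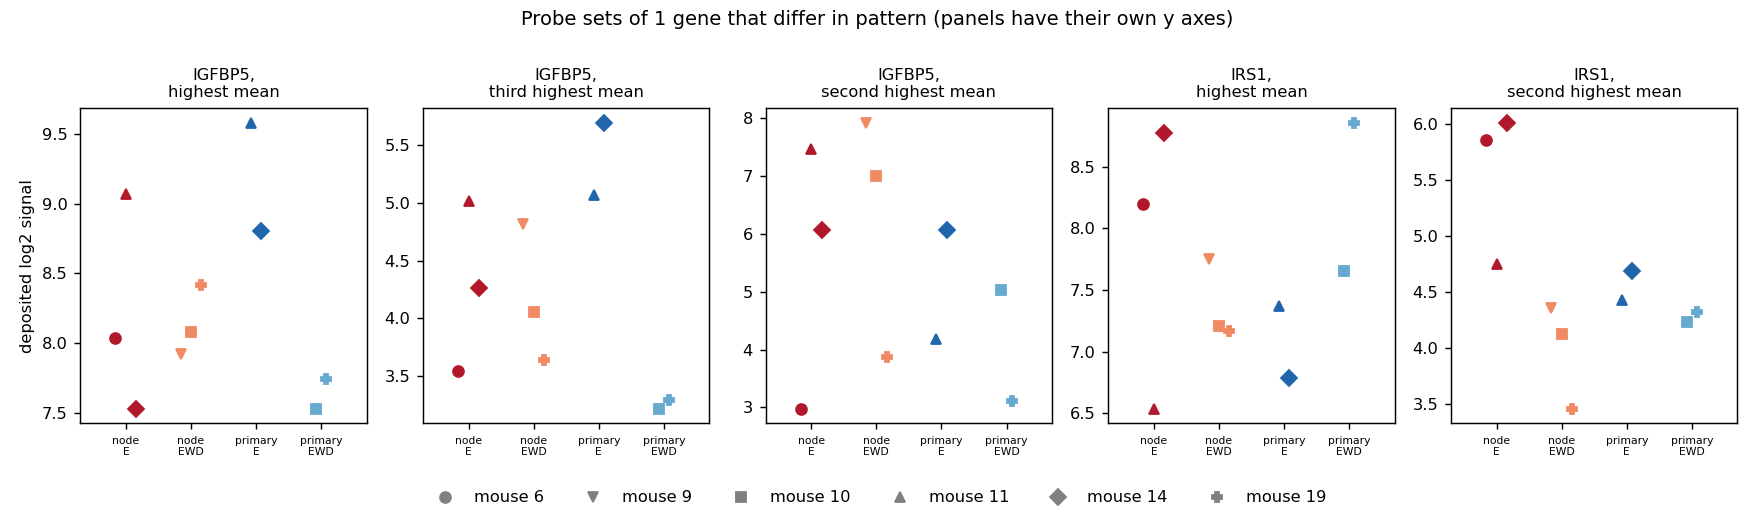
Deposited log2 signal (y axes differ between panels) on each array for 3 IGFBP5 and 2 IRS1 probe sets, by group (x axis) with the mouse as the symbol. The IGFBP5 probe sets with the highest and the third highest mean separate the primary tumor groups while that with the second highest does not, and the second IRS1 probe set separates the lymph node groups while the first does not.

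IGFBP2, a binding protein secreted by many tumor cells, was at 6.57, 6.69 and 4.91 in estrogen-treated nodes and 5.20, 5.36 and 4.91 in withdrawn nodes (g10835156_3p_x_at, Entrez gene 3485). In primary tumors it was at 4.36 and 4.35 with estrogen and 4.55 and 3.60 after withdrawal. Every node lay above every primary tumor. Averaged over pellet states the nodes were higher by 1.39 (SE 0.38, limma adjusted p 0.0576), just short of the threshold, and by 1.17 (adjusted p 0.242) after quantile normalization. Its node values exceeded those of the same animal's primary tumor by 0.81 (mouse 10), 2.34 (mouse 11), 0.56 (mouse 14) and 1.30 (mouse 19). The luminal marker list was higher in nodes as well, at a median site difference of 0.92 as deposited and 0.32 after quantile normalization. The list's part in the IGFBP2 values was not tested.

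The IGFBP2 site difference was called without the estrogen-treated node of mouse 11 (1.24, limma adjusted p 0.0469) or that of mouse 14 (1.67, adjusted p 0.00705), and not in the other 8 fits that each left out 1 array. Without those nodes 17.5% and 10.2% of all genes were called for the site average, against 8.15% with all 10 arrays. The ending of this probe set's name (x) marks, in the platform's naming, probes that can also bind other transcripts. The other IGFBP2 probe sets had means of 2.61 and 2.95, and their nodes were higher in 2 and 3 of 4 mice. Estrogen minus withdrawal was 0.90 (SE 0.47, adjusted p 0.91) in nodes and 0.27 (SE 0.58, adjusted p 0.816) in primary tumors.

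IGFBP3, the main IGF carrier in blood, was low on its used probe set (g183115_3p_a_at, Entrez gene 3486), between 2.04 and 4.30, and was not called. It was at 2.63, 3.51 and 4.30 in estrogen-treated nodes, 2.04, 3.24 and 3.42 in withdrawn nodes, 2.94 and 3.56 in estrogen-treated primary tumors and 3.14 and 3.23 in withdrawn ones. IGFBP4, which inhibits IGF action, had 1 probe set (g10835020_3p_s_at, Entrez gene 3487), at 3.20, 3.68 and 2.69, then 4.15, 4.01 and 2.54, in nodes with and without estrogen. In primary tumors it was at 2.52 and 3.20, and 2.99 and 2.22. The groups of both genes overlapped in each estrogen comparison, and their fitted differences lay between −0.38 and 0.57, with intervals that reached from −1.46 to 1.68.

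IGFBP6, a binding protein that prefers IGF2, had 1 probe set (g11321592_3p_at, Entrez gene 3489), and 1 array stood out. The estrogen-treated nodes were at 3.12, 7.18 and 3.19, the high value being that of mouse 11. The other arrays were at 3.49, 3.30 and 3.51 in withdrawn nodes, 4.94 and 3.38 in estrogen-treated primary tumors and 4.43 and 3.14 in withdrawn ones. The SD of the estrogen-treated nodes was 2.32 (n = 3), and no comparison was called, the node difference being 1.07 (SE 1.02, limma adjusted p 0.947).

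The 3 highest IGFBP6 values were those of the node of mouse 11, the primary tumor of mouse 11 and the withdrawn primary tumor of mouse 10. KRT5, a basal keratin, was at 6.22, 6.32 and 5.64 on these arrays, at 7.72 on the estrogen-treated primary tumor of mouse 14 and at 2.92 to 3.65 on the other 6. The other basal markers overlapped between these sets of arrays. KRT14 was at 3.19, 3.00 and 2.46, at 3.49 and at 2.34 to 3.39 in the same order. ACTA2 was at 8.92, 7.40 and 8.79, at 7.67 and at 5.01 to 7.41. The mean of the 3 measured basal markers was 6.11, 5.57 and 5.63 on those same arrays, 6.29 on the primary tumor of mouse 14, and 3.81 to 4.53 elsewhere. Their part in the IGFBP6 values was not tested.

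The rest of the pathway was read from 6 lists of 119 genes, of which 106 had a probe set with 1 symbol and 99 were tested. For estrogen in lymph nodes, 0 were called on either scale. In primary tumors 14 were lower and 0 higher with estrogen as deposited, and 0 lower and 2 higher after quantile normalization. Of all genes, 7.82% were called there as deposited (1191 lower and 151 higher) and 1.34% after quantile normalization (100 lower and 130 higher). The median difference of the 99 genes moved from −0.16 to 0.02, and that of all genes from −0.10 to 0.06, so the tally of higher and lower calls depended on the scaling. The 14 genes called lower as deposited all kept that sign after quantile normalization, with differences of −2.56 to −0.04, and 0 of them were called.

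Among the ligands and the enzymes that process them, 11 of 13 genes were tested. IGF1, the circulating ligand of IGF1R, was at 2.69 to 3.38 on all 10 arrays on its most intense probe set and at 1.83 to 3.09 on the other 3, near the bottom of the range, and was not called. IGF2 was not analysed here. CTSD, a lysosomal protease that can degrade IGFBPs, was at 10.19, 11.00 and 9.90 in estrogen-treated nodes, 9.36, 9.20 and 9.62 in withdrawn nodes, 8.17 and 8.64 in estrogen-treated primary tumors and 7.98 and 7.83 in withdrawn ones. It was the 1 gene of the list called: higher in nodes by 1.72 (SE 0.24, limma adjusted p 0.00922) as deposited, against 0.93 (adjusted p 0.192) after quantile normalization. For estrogen it was called after quantile normalization, by 1.40 (adjusted p 0.0368), and not as deposited (0.74, adjusted p 0.0841). None of the 5 tested genes among the other IGF-binding proteins and of the 3 IGF2 messenger-binding proteins was called on either scale.

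Of the 31 tested adaptors and receptor regulators, 7 were called lower with estrogen in primary tumors as deposited. There 7.82% of all genes were called, 1191 lower and 151 higher. None of the 7 was called after quantile normalization, where their differences were −2.56 to −0.52. SOS2, a RAS exchange factor, differed about as much on both scales (−2.60, limma adjusted p 0.038, and −2.56, adjusted p 0.0582). The adaptors GRB2 (−2.28, adjusted p 0.0178), NCK1 (−1.95, adjusted p 0.0137) and NCK2 (−2.26, adjusted p 0.0118) were at −0.52, −1.07 and −0.84 after quantile normalization. For the average of both sites, 4 stayed lower after quantile normalization: SOS2 (−2.13, adjusted p 0.0204), PTPN2, a phosphatase (−1.28, adjusted p 0.0306), NCK2 (−0.73, adjusted p 0.0432) and GRB14, an adaptor that inhibits the insulin receptor (−1.68, adjusted p 0.0495). For that average and scale 3.72% of all genes were called. PTPN2 and GRB14 fell outside the naming rule and are named after their values were seen. PTPN1, a phosphatase that acts on INSR and IGF1R, was higher in nodes by 0.89 (adjusted p 0.0252) on the site average as deposited.

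CAV1, caveolin 1, was lower in nodes than in primary tumors. It was at 3.32, 5.17 and 5.34 in estrogen-treated nodes, 3.20, 3.88 and 2.65 in withdrawn nodes, 6.80 and 6.85 in estrogen-treated primary tumors and 7.02 and 5.72 in withdrawn ones, so all nodes lay below all primary tumors. The site average was −2.69 (SE 0.47, limma adjusted p 0.0159), and −3.04 (SE 0.47, adjusted p 0.0435) after quantile normalization. It was the 1 gene of the 99 called on the site average on both scales, whereas 18 genes were called higher in nodes as deposited and 0 after quantile normalization. Of all genes, 8.15% were called for the site average as deposited and 0.344% after quantile normalization.

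In the PI3K-AKT-MTOR list, 36 genes were tested, and 7 were lower with estrogen in primary tumors as deposited, among them RPS6KB1, the S6 kinase (−3.18, limma adjusted p 0.0211), and PIK3R3, a PI3K regulatory subunit (−3.51, adjusted p 0.0482). After quantile normalization these were −1.41 and −2.32, and 0 of the 7 were called. The shares called of all genes in primary tumors were 7.82% as deposited and 1.34% after quantile normalization. PIK3R3 stayed lower on the average of both sites after quantile normalization (−2.44, adjusted p 0.0306). GSK3A, a kinase that AKT inhibits, was called higher with estrogen in primary tumors after quantile normalization (2.11, adjusted p 0.0271), against 0.39 (adjusted p 0.306) as deposited. AKT2, named after its value was seen, was called there as well (1.68, adjusted p 0.0416) but had the opposite sign as deposited (−0.10, adjusted p 0.872). On the average of both sites and the same scale, GSK3A (1.18, adjusted p 0.0215) and SGK1, a kinase related to AKT (1.11, adjusted p 0.0451), were higher, against 0.31 and 0.75 as deposited, where neither was called. SGK1 is also named after its value was seen.

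For site as deposited, where 8.15% of all genes were called and the median of all genes was 0.16, 10 of the 36 were called higher in nodes and the list's median was 0.55 (−0.02 after quantile normalization). They included AKT1S1, an MTOR complex subunit (1.74, limma adjusted p 0.011), RPTOR, the scaffold of that complex (1.31, adjusted p 0.0128), GSK3A (1.01, adjusted p 0.00952) and BAD, a cell death protein that AKT restrains (1.80, adjusted p 0.0211). None of the 10 was called after quantile normalization, where AKT1S1, BAD and RPTOR differed by 1.42, 1.44 and 0.99 and GSK3A by 0.10. The RAS-MAPK list had 13 tested genes, with 0 called for estrogen and 4 called higher in nodes as deposited: MAPK3 (1.45, adjusted p 0.0131), MAP2K2 (1.33, adjusted p 0.0261), ARAF (1.24, adjusted p 0.0302) and HRAS (0.98, adjusted p 0.0453). After quantile normalization 0 of the 13 were called, and these 4 differed by 0.42 to 0.93.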

How the data were processed

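The authors' deposited log2 values were used, 1 per probe set for 61359 probe sets on each of 10 arrays. Per the submitters' processing notes they were made with Partek and RMA, which corrects background, normalizes arrays and summarizes probes, with no version given. Small laser-captured samples and PCR amplification add noise and can favor 3′ ends. Arrays hold no read counts, and the precision is set by how many there are.

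Gene symbols came from the platform annotation table (44532 with 1 symbol; the other 16827 had several, were unnamed here or were controls). A gene took its probe set with the highest mean, and was tested if that mean reached log2 2.311, the 25th percentile over all probe sets, which left 17170 of 19556 genes. Limma 3.58.1 in R 4.3.3 fitted all 10 arrays with 1 mean per group and mouse as a random block (consensus correlation −0.0415, prior degrees of freedom 2.66), with Benjamini-Hochberg adjustment over all genes, for 7 comparisons. A second fit took all 35191 tested probe sets. Fits that left out an array reused the full fit's correlation. The code of the fit was run on simulated data with independent noise and no mouse or scaling effect. That run differs from these arrays and does not bear on the calls.

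The labels' mouse numbers mark both sites of 1 animal. The correlations of their deviations from group means were 0.176, −0.208, −0.21 and 0.0831 for mice 10, 11, 14 and 19, and the block was kept since each pair is 1 animal.

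The members and the gene lists were chosen with earlier results of these data known. All members are reported. Of each pathway list, at most 6 genes called on either scale are named, by smallest adjusted p, with IGF1 and IGF2 always and ESR1 and GREB1 for the pellet state. Alternatives were quantile normalization, other filters, the mean over probe sets, hybridization controls as a covariate, other blocks and leaving out arrays. No human genome or sequence table was used, so no sequences or coordinates are given.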

Additional observations from a re-analysis of the deposited data

How the results depend on the processing

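The count of members called for estrogen in primary tumors, 2 as reported, was 1 after quantile normalization, 0 with the mean over probe sets and 4 with the hybridization controls as a covariate, fits that called 1.34%, 3.97% and 34.9% of all genes. For the average of the estrogen comparisons, 2 as reported, it was 1 after quantile normalization and 1 with the mean over probe sets (3.72% and 4.52% of all genes). For the site average, 1 as reported, it was 0 after quantile normalization (0.344% of all genes), 0 with mouse as a fixed replicate block (0%), 2 with a filter at the 50th percentile (10.4%), 2 with the mean over probe sets (5.17%) and 2 with the hybridization controls (19.0%). With those controls as a covariate, 4 members were called for the difference of responses, 4 for the site comparison under estrogen and 1 for that after withdrawal, each 0 as reported, where 23.6%, 29.0% and 13.3% of all genes were called. Quantile normalization without the estrogen-treated node of mouse 11, added after seeing the data, gave 1 for the site comparison under estrogen and 0 for the site average (2.22% and 1.80% of all genes). In primary tumors the hybridization controls split with the pellet state, so that covariate cannot be told apart from it. The cause of these changes was not tested.

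Leaving out each of the 10 arrays in turn gave 0 to 3 members called in primary tumors, 0 to 1 for the difference of responses, 0 to 3 for the site comparison under estrogen, 0 to 4 for the average of the estrogen comparisons and 0 to 2 for the site average. The same fits called 0.0291% to 20.4%, 0% to 7.75%, 0.0874% to 21.4%, 0.227% to 17.1% and 0.955% to 17.5% of all genes, the shares against which the members' counts are to be read. For the members' probe sets and the average of the estrogen comparisons it gave 0 to 3, with 2 as reported. The estrogen comparison in lymph nodes stayed at 0 members in all of them. Where such a fit leaves 1 array in a primary tumor group, that array is assumed to vary like the other groups. With all 10 arrays, 3.57% of all probe sets were called for the average of the estrogen comparisons. The shares of all probe sets in the fits that left out an array are not given here, so that probe set range has nothing to be read against. The fit with no replicate block gave the same counts of members as the paired one in all 7 comparisons, at 0, 2, 0, 0, 0, 2 and 1. It called 0%, 7.96%, 0.0175%, 9.28%, 0%, 7.08% and 8.86% of all genes in the same order. A fixed replicate block holds site comparisons alone.

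Of the 70 pairs of a member and a comparison, 19 had an unadjusted limma p under 0.05 on either scale. By comparison, 5.84% to 27% of all genes had such a p as deposited and 6.34% to 24.7% after quantile normalization. Those shares are for 1 scale at a time, so the count of pairs is not shown to exceed them. Among the 19 pairs, the IGFBP5 site average turned from −0.24 to 0.17 with the mean over probe sets, and neither was called. Of the other 51, 29 changed sign under at least 1 alternative. IGF1R kept its direction for the average of the estrogen comparisons in 17 of 17 alternatives and was called in 15, with values from 0.46 to 1.52. INSR kept its direction there in 17 of 17 and was called in 7. IGF2R kept its direction for the site average in 18 of 18 and was called in 8. IGFBP3 and IGFBP4 had mean signals of 3.20 and 3.12, near the array medians of 2.70 to 2.83, which limits how much lower they could read. The same limit bears on the used IGF1R probe set after withdrawal, at group means of 3.29 in nodes and 3.52 in primary tumors, and so on its fold differences. Over all genes, quantile normalization moved the calls in primary tumors from 151 higher and 1191 lower with estrogen to 130 and 100, and those of the averaged estrogen comparison from 168 and 1208 to 278 and 361. For nodes against primary tumors it moved them from 1341 higher and 163 lower to 13 and 66 under estrogen, and from 1290 and 110 to 22 and 37 on the site average.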

Other observations

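IGF1R and INSR moved in opposite directions with the pellet state, and the log2 signal of IGF1R minus that of INSR on each array, a measure chosen after the values were seen, is given here with no test. It was −1.33, −1.02 and −1.79 in estrogen-treated lymph nodes of mice 6, 11 and 14, and −3.55, −2.58 and −3.07 in the withdrawn nodes of mice 9, 10 and 19. In primary tumors it was 0.05 and −0.05 with estrogen in mice 11 and 14, and −2.45 and −3.46 after withdrawal in mice 10 and 19. All 5 estrogen-treated arrays lay above all 5 withdrawn arrays. After quantile normalization the estrogen-treated arrays ran from −1.65 to 0.06 and the withdrawn ones from −3.32 to −2.28, again without overlap. IGF1R alone was already without overlap, from 4.40 up with estrogen and from 3.88 down after withdrawal as deposited. Its bounds after quantile normalization were 4.26 and 3.96. The lack of overlap in the measure thus follows from the choice of its genes and is no further result. A level of 1 probe set has no common scale with that of another, so only differences between arrays can be read from these values.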
